A study of Homo sapiens with 8 samples.

Results

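The regions described here were m6A peaks that lay in the first exon of a transcript with more than 1 exon. HL60 cells, a human promyelocytic leukaemia line, were compared with HL60/ADR cells, a line derived from HL60 by exposure to stepwise higher doses of Adriamycin (doxorubicin) up to 0.5 µg/ml and studied after the drug had been withdrawn. Both lines came without further genetic change in the labels, and each was profiled by methylated RNA immunoprecipitation sequencing (MeRIP-seq) of poly(A) RNA. There were 2 antibody libraries (IP) and 2 matched input libraries for each line, 8 libraries in all. The resistant line was a population selected from 1 parental line, so drug selection and any other history of the culture cannot be told apart. The labels did not say that the 2 replicates came from separate cultures, so the p-values given for expression measure only the spread between these libraries.

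A peak was a member when the deposited annotation placed it in exon 1 of a transcript with more than 1 exon and its gene symbol did not begin with LINC. Exons annotated as untranslated region (5' UTR or 3' UTR) carried that name instead, so the members lay mostly outside annotated 5' UTRs, in coding first exons, in non-coding RNAs and in pseudogenes. There were 2289 members among the 40550 peaks of HL60 and 2287 among the 38834 peaks of HL60/ADR, 4576 of 79384 in all. They made up 5.64% of the HL60 peaks (95% Wilson interval 5.42 to 5.87) and 5.89% of the HL60/ADR peaks (5.66 to 6.13). Another 148 and 155 first-exon peaks of LINC genes were left out. All rows of the deposited lists were counted, and their fold enrichments reached down to 1.05 in HL60 and 1.08 in HL60/ADR. The authors also used a fold enrichment of 2 as a limit for m6A peaks, and some members lay below it. Peaks had been called once per line on pooled replicates, so each peak had 1 fold enrichment (IP over input) per line, and no spread between replicates could be given for any peak value. The intervals printed for shares and medians cover counting error over peaks only, and 204 HL60 and 202 HL60/ADR members overlapped another member of the same list.

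N6-methyladenosine (m6A) is added to RNA in the nucleus by the METTL3 and METTL14 writer complex, at short sequences of the DRACH type, and is removed by FTO and ALKBH5 and read by proteins such as the YTHDF family. It is best known around stop codons and in 3' UTRs. Near transcript starts the same antibodies also bind m6Am, a related mark on an adenosine next to the cap. First exons hold the 5' end of non-coding RNAs as well as the 5' end of messenger RNAs, and many promoters also make a divergent or antisense non-coding transcript.

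To show what lay at such starts, the 50 bases after each RefSeq start (build GRCh38.p14) were searched wherever a member covered them. Of the gene symbols of members, 936 of 1829 in HL60 and 934 of 1840 in HL60/ADR were in the RefSeq table, and members covered 71 starts of 66 genes in HL60 and 80 starts of 76 genes in HL60/ADR, with 35 genes among both. Divergent transcripts (symbols ending in -DT) were 12 of the 66 genes and 18 of the 76, antisense RNAs (-AS) were 25 and 28, and protein-coding genes were 11 and 12. The following 21-base windows are from those starts, 5' to 3' on the strand of the RNA, with the DRACH word (A, G or T, then A or G, then A, C, and A, C or T) in capitals. The first group holds GGACT, the most common m6A word, and the second holds other words at genes that had peaks in both lines. The windows were chosen after the values had been seen, and every word printed lay inside the peak.
RAB30-DT: agcaaaggGGACTcggccgcc
IBA57-DT: cggggcggGGACTcggcctat
NDUFA6-DT: tggcctttGGACTacaccatc
MALAT1: tctgtaaaGGACTggggcccc
PTOV1: tcttcccaGGACTcccccgcg
ODC1-DT: ggtacccaAAACCaggtctga
DNAJC3-DT: caagctccAAACCgcggctgc
DNAJB4: aacgacagGAACAgagacgtc
LUCAT1: ctccactcAGACAatgcccag
EIF2AK3-DT: gtctgcgcTAACTgcctcttg

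The RAB30-DT window (chr11:83072076-83072096, plus strand) had its word beginning 19 bases into the transcript, and the fold enrichment of its peak was 12.1 (HL60) and 9.31 (HL60/ADR). IBA57-DT (chr1:228165500-228165520, minus strand) had GGACT at the first base of the RNA, with 9.93 and 7.09. NDUFA6-DT (chr22:42090959-42090979, plus strand) had a member in HL60/ADR only, at 20.4. MALAT1, a nuclear long non-coding RNA, likewise had a first-exon peak in HL60/ADR only, at 14.2 over chr11:65497759-65497779 (plus strand), and PTOV1 had one in HL60 only, at 4.05 over chr19:49851004-49851024 (plus strand). Of these 5 GGACT starts, those of RAB30-DT and IBA57-DT lay under peaks in both lines.

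Among the other words, ODC1-DT (chr2:10449729-10449749, plus strand) had the strongest peaks, at 24.3 in HL60 and 25.1 in HL60/ADR. DNAJC3-DT (chr13:95676895-95676915, minus strand) had 8.02 and 12.3, and DNAJB4, a heat shock protein 40 co-chaperone (chr1:77979203-77979223, plus strand), had 8.83 and 21.3. LUCAT1, a long non-coding RNA (chr5:91314374-91314394, minus strand), had 3.14 and 10.6. EIF2AK3-DT (chr2:88627825-88627845, plus strand) had 10.5 and 13.2 in the peak that covered the window. All 5 of these values were higher in HL60/ADR, without replicates to set them against. The windows were picked with the values known, so this count is no finding. The values of RAB30-DT and IBA57-DT above were lower in HL60/ADR. Where 1 peak of each line overlapped only the other, 61.9% of first-exon pairs and 68.0% of all pairs were higher in HL60/ADR.

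Over all starts covered by members, a DRACH word stood in the first 50 bases of 46.5% in HL60 (33 of 71; 95% Wilson interval 35.4 to 58.0) and 46.3% in HL60/ADR (37 of 80; 35.7 to 57.1). The share over all 35116 RefSeq starts was 49.6%, and on the opposite strand the members' starts held a word in 40.8% and 50.0%. GGACT was found in 4 of 71 (5.63%) and 5 of 80 (6.25%) against 4.90% of all starts. The intervals of the members' shares held the share of all starts for both words. The first base of the RNA was A in 31.0% (21.4 to 42.5) and 35% (25.5 to 45.9), against 44.4% of all RefSeq starts and 53.6% and 53.0% of the starts under 5' UTR peaks. This search covers only members at RefSeq starts, which were a small share of all members, and the peaks elsewhere were not searched.

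First-exon peaks fell on a mixture of genes unlike that of the 5' UTR peaks. Protein-coding genes held 1210 HL60 members (52.9%) and 1166 HL60/ADR members (51.0%), against 94.6% and 93.9% of 5' UTR peaks and 69.2% and 64.7% of peaks in later exons. RefSeq long non-coding RNAs held 223 (9.74%) and 233 (10.2%) members, somewhat less than the 11.01% and 13.7% of later-exon peaks, pseudogenes held 191 and 190, and 656 and 678 members carried a symbol that was not matched in the RefSeq table. Clone names such as AC and AL numbers, which mark genes without an approved symbol, made up 612 members in HL60 (26.7%) and 622 in HL60/ADR (27.2%), against 2.20% and 2.40% of 5' UTR peaks and 10.3% and 12.3% of later-exon peaks. Antisense RNAs made up 122 members (5.33%) and 136 (5.95%), against 0.421% and 0.506% of 5' UTR peaks and 4.42% and 4.45% of later-exon peaks. Divergent transcripts made up 38 (1.66%) and 41 (1.79%), against 0.0455% and 0.0588% of 5' UTR peaks and 0.957% and 1.09% of later-exon peaks. These differences follow in part from the rule, since a transcript without a coding sequence has no annotated 5' UTR.

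The named gene and the gene that owned the exon were not always the same. The exon belonged to another gene than the one named for 347 members in HL60 and 393 in HL60/ADR. Where both strands were known, the other gene lay on the opposite strand for 196 of 286 and 220 of 327 of these. CYP1B1, a cytochrome P450 that oxidises xenobiotics, was an example, because its members lay in exons of CYP1B1-AS1. The counting of reads in peaks was not stated to use strand for these lists, so peaks of overlapping genes cannot be assigned to one of them.

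Many first-exon peaks lay at the start of a transcript, and many lay deep inside a gene. The start of the nearest annotated transcript was covered by 48.4% of HL60 members (1108; 46.4 to 50.5) and 48.3% of HL60/ADR members (1105; 46.3 to 50.4). The share was 77.9% and 79.4% for 5' UTR peaks and 18.7% and 17.7% for later-exon peaks. Where the start was not covered, the median distance to it was 4233 bases in HL60 and 3241 in HL60/ADR. Measured along the gene that owned the exon, 53.0% of 2098 HL60 members and 55.3% of 2119 HL60/ADR members began in the first 10% of its length, and 27.0% and 26.0% began beyond 50% of it. Of the later-exon peaks, 5.99% and 6.52% began in the first 10%. A first exon in this annotation is thus that of any of a gene's transcripts and can lie far downstream of the gene's main start.

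**Figure D1:**
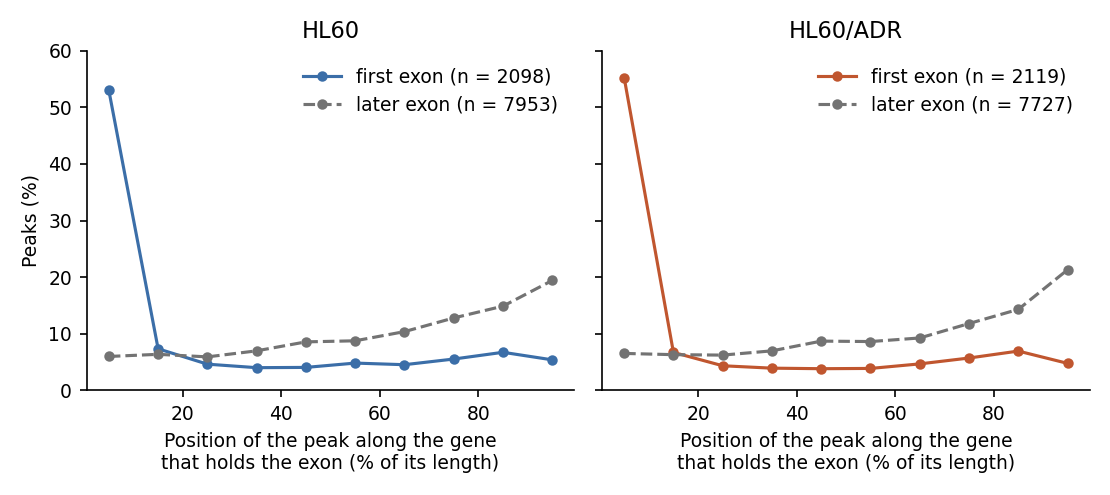
Share of peaks (percent, y axis) by where the peak began along the gene that owned its exon (percent of gene length in bins of 10%, x axis), for first-exon and later-exon peaks in each line. In both lines over 50% of first-exon peaks began in the first bin (53.0% and 55.3%), while later-exon peaks were spread along the gene.

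ABCC1, the multidrug resistance protein MRP1 that exports doxorubicin and other drugs, showed such an internal peak. Its first-exon peak was present in HL60/ADR only, with a fold enrichment of 3.55 at chr16:16098018-16098228 (GRCh38), in exon 1 of a transcript with 4 exons and 148441 bases from the nearest start given. An HL60 peak under another annotation overlapped it. ABCC1 itself was at 29.3 and 29.3 FPKM (fragments per kilobase of exon, scaled to the mapped reads of a library) in the 2 HL60 inputs and at 278 and 283 FPKM in the 2 HL60/ADR inputs, a log2 fold change of 3.22 (SE 0.02, adjusted p = 6.07e-06 by limma). The 2 lines did not overlap.

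First-exon peaks had a higher median fold enrichment than all peaks, 5' UTR peaks and 3' UTR peaks in both lines. In HL60/ADR the median was no higher than that of exons 2 to 4. The median was 4.83 in HL60 (95% interval 4.52 to 4.97, quartiles 2.75 and 7.73) and 6.21 in HL60/ADR (5.99 to 6.21, quartiles 3.10 and 9.31). Over all peaks it was 3.86 and 5.32, for 5' UTR peaks 4.02 and 5.32, for later exons 3.75 and 5.46, and for 3' UTR peaks 3.53 and 4.98. By exon number, with LINC genes included, the HL60 medians were 4.97 for exon 1, 4.41 for exon 2, 4.17 for exon 3 and 4.23 for exon 4. In HL60/ADR all 4 were 6.21, a value on the grid of whole steps described below. A tie on that grid does not show equal enrichment. Single-exon transcripts, which the rule leaves out, had higher medians still (6.07 and 7.09). A fold enrichment of 20 or more was found for 42 HL60 members and 95 HL60/ADR members. No replicate spread exists for these medians, and they are given as descriptions of 2 pooled lists.

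**Figure D2:**
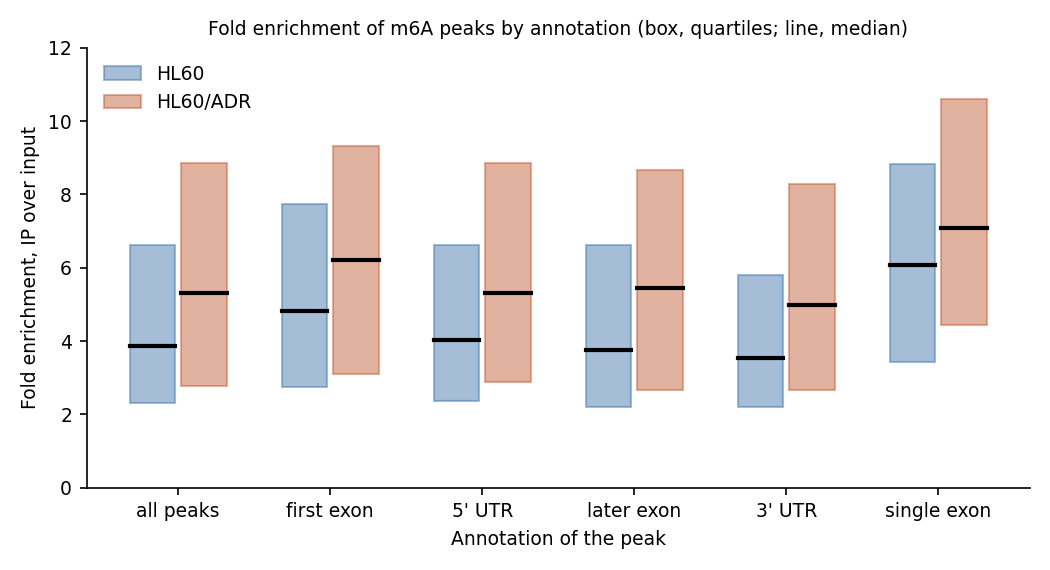
Fold enrichment (IP over input, y axis) of peaks by annotation (x axis) in each line, where boxes span the quartiles and black lines are medians over peaks. First-exon peaks sit higher (medians 4.83 in HL60 and 6.21 in HL60/ADR) than 5' UTR peaks (4.02 and 5.32) and 3' UTR peaks (3.53 and 4.98).

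The high values came mostly from genes with little RNA. The median FPKM of genes with members was 1.47 in HL60 and 1.39 in HL60/ADR, against 2.79 and 2.39 for all peaks and 5.22 and 4.32 for 5' UTR peaks. In genes under 0.5 FPKM the median fold enrichment of members was 6.62 in HL60 (752 peaks) and 7.98 in HL60/ADR (758 peaks). It fell with each higher expression class, through 4.72, 3.83 and 3.31 to 2.45 at 20 FPKM and above in HL60 (138 peaks), and through 5.84, 4.61 and 3.81 to 2.71 in HL60/ADR (132 peaks). In genes at 1 FPKM or more the median was 3.39 in HL60 and 3.99 in HL60/ADR, against 3.36 and 4.83 for 5' UTR peaks and 2.73 and 3.44 for later exons of such genes. In this class first-exon peaks were therefore level with 5' UTR peaks in HL60 and lower in HL60/ADR. Several starts printed above belonged to genes with little RNA, namely ODC1-DT (means of 0.185 FPKM in HL60 and 0.270 FPKM in HL60/ADR), LUCAT1 (0.375 and 0.354) and RAB30-DT (0.464 and 0.595). Others, such as DNAJB4 and DNAJC3-DT, were above 1 FPKM in both lines.

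**Figure D3:**
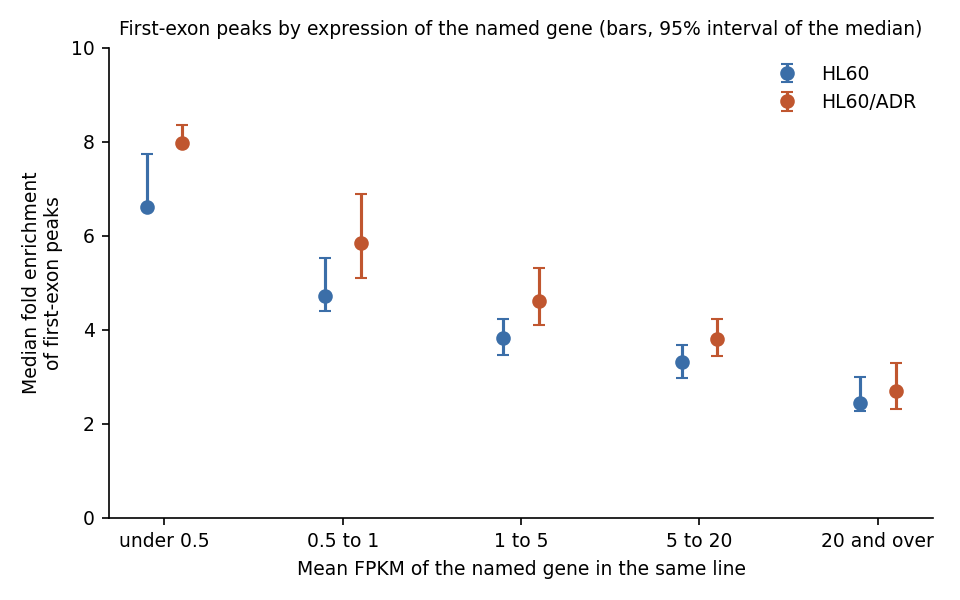
Median fold enrichment of first-exon peaks (y axis) by class of mean input FPKM of the gene (x axis) in each line, with bars for the 95% interval of the median over peaks. The median falls from 6.62 under 0.5 FPKM to 2.45 at 20 FPKM or more in HL60, and from 7.98 to 2.71 in HL60/ADR.

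The fold enrichments also sat on a grid. In HL60, 34.3% of members (785) had a value that was a whole multiple, from 6 to 40 times, of 1.10 at 3 significant digits, and in HL60/ADR 41.1% (940) were such multiples of 0.887. The shares over all peaks were 21.02% and 29.0%. Among the printed starts, IBA57-DT and DNAJB4 had values on the grid in both lines. ODC1-DT and RAB30-DT had them in HL60, and NDUFA6-DT, MALAT1 and LUCAT1 in HL60/ADR. Only 6 to 40 steps were searched, so a larger value counted as off the grid even where it was a whole multiple. Members off the grid had a median of 3.31 in HL60 and 3.45 in HL60/ADR, against 3.14 and 3.94 for 5' UTR peaks off the grid and 2.90 and 3.22 for later exons. Members were also less often strong by the caller's own score: a false discovery rate of 0.05 or lower was met by 66.9% of HL60 members (64.9 to 68.8) and 77.1% of HL60/ADR members (75.3 to 78.8), against 80.1% and 84.1% of all peaks. The part of low expression in the high medians was not tested beyond the classes above.

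Short transcripts and covered starts went with higher values. In transcripts of 2 exons the median was 5.52 in HL60 (908 peaks) and 6.70 in HL60/ADR (904 peaks), and in transcripts of 11 or more exons it was 3.31 (195 peaks) and 4.92 (173 peaks). Peaks that covered the nearest start had a median of 6.58 in HL60 and 6.68 in HL60/ADR, against 3.86 and 5.32 for the others. In genes at 1 FPKM or more these medians were 3.79 and 3.09 for HL60, and 4.75 and 3.61 for HL60/ADR. By kind of gene the medians were 3.75 and 4.50 for protein-coding genes, 5.10 and 7.09 for long non-coding RNAs and 6.62 and 6.78 for pseudogenes. Divergent transcripts had 5.94 and 8.87.

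Most genes had a single member. Of the 1861 genes in HL60 and 1893 in HL60/ADR, 1555 and 1605 had 1 peak, 233 and 215 had 2, 47 and 55 had 3, and 26 and 18 had more. A first-exon peak was the gene's only peak for 659 genes in HL60 (35.4%) and 652 in HL60/ADR (34.4%). A 5' UTR peak accompanied it in 27.0% and 24.7% of genes and a 3' UTR peak in 41.6% and 40.5%, while 64.3% and 66.6% of genes with a 5' UTR peak had a 3' UTR peak.

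Several genes with many members were loci whose members lay in exons of neighbouring or antisense genes. PCDHGA2, in the gamma protocadherin cluster where each cell adhesion protein has its own first exon, carried 6 HL60 members with fold enrichments of 1.91 to 19.9 and 8 HL60/ADR members with 3.19 to 51.4, in exons of neighbouring cluster genes. CHKB, choline kinase beta, carried 6 in HL60 (1.64 to 6.07), 5 of them in an exon of CHKB-DT, and 0 in HL60/ADR. All 6 overlapped an HL60/ADR peak that carried another annotation or gene name, so the 0 is no loss of peaks. A1BG carried 5 partly overlapping HL60 rows, all in an A1BG-AS1 exon (7.73 to 18.8). SLC16A3, the lactate exporter MCT4, carried 4 in HL60 and 6 in HL60/ADR, in exons of CSNK1D and AC132872. Some rows of A1BG and SLC16A3 shared bases, and the rows of CHKB and PCDHGA2 did not. TPT1-AS1 differed from these loci, since its 2 HL60 and 6 HL60/ADR members lay in its own exons.

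NEAT1, the RNA scaffold of nuclear paraspeckles, carried the highest fold enrichments in HL60/ADR. A peak at chr11:65422774-65425436 had a fold enrichment of 220, and an overlapping row from another transcript had 211. In HL60 the first-exon rows began at the same base but ended at 65423342, with 10.0 and 8.35, and a separate HL60 row in exon 2 of 2, at chr11:65423492-65425317, had 84.0. The HL60/ADR peak thus spanned what was called as 2 peaks in HL60, and the first-exon values of the lines refer to regions of different length. NEAT1 was at 13.3 and 13.8 FPKM in the HL60 inputs and at 31.8 and 31.4 FPKM in the HL60/ADR inputs, a log2 fold change of 1.17 (SE 0.03, adjusted p = 2.1e-05 by limma).

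Among genes at 1 FPKM or more, the highest HL60 member was in RPL23AP7, a ribosomal protein pseudogene, at 77.3 (chr2:113611191-113627090), where HL60/ADR had 4.72. Reads of near-identical copies can be split between such loci, so this value is uncertain. RAB4B, a small GTPase of endosome recycling, had 25.4 in HL60 and 28.4 in HL60/ADR over the same region (chr19:40785742-40786607). SDF4, a Golgi calcium-binding protein, had 22.1 and 22.2, and TNIP1, an inhibitor of NF-kB signalling, had 23.2 and 16.8. The values of these 3 peaks were within 2-fold between the lists, and all of them were on whole steps of the grid. LNPEP, an aminopeptidase, had 23.2 in HL60 against 8.87, and KDM8, a JmjC-domain hydroxylase, had 21 in HL60 with no overlapping HL60/ADR peak. The LNPEP and KDM8 values were on whole steps too.

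After NEAT1, the highest HL60/ADR member was in C1orf35, at 103 (chr1:228104215-228104843), where HL60 had 7.06 in a partly overlapping peak. EOLA2 followed at 53.2 in an exon of LINC00894, with 6.07 in HL60. AGAP2, a GTPase-activating protein, had 39.9, and the HL60 peak there was assigned to an exon of TSPAN31 at 8.83. ZXDC, a zinc finger protein, had 31.0 against 11.6. CCDC91, a Golgi trafficking protein, had 30.2 against 19.9, both in an exon of AC022364. The values of CCDC91 in both lines and of ZXDC in HL60/ADR were on whole steps. Those of C1orf35, EOLA2 and AGAP2 in HL60/ADR lay above the 40 steps searched. These genes were picked by their HL60/ADR values, so lower HL60 values are no finding.

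The share of members that overlapped a peak of the other line was smaller than for 5' UTR peaks and depended on the overlap required. Of the HL60 members 62.3% (60.3 to 64.3) overlapped an HL60/ADR peak of any annotation by at least 1 exonic base, and of the HL60/ADR members 59.2% (57.1 to 61.2) overlapped an HL60 peak. The shares over all peaks were 71.3% and 72.9%, for 5' UTR peaks 76.1% and 77.8%, and for later exons 62.9% and 65.1%. The overlapping peak was itself in a first exon for 1061 of 1426 shared HL60 members (74.4%) and 1028 of 1353 shared HL60/ADR members (76.0%). A later-exon partner was found for 14.8% and 15.6% of shared members and a 5' UTR partner for 13.6% and 11.8%, and a member could have several partners. Divergent transcripts were shared more often than members as a whole, at 86.8% and 75.6%, a description with 38 and 41 peaks. With 50% of both peaks required to overlap, 33.7% and 33.3% of members were shared, and under a stricter peak threshold 68.8% and 42.7%.

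At the level of genes, 883 had a first-exon peak in both lines, which was 47.4% of the HL60 genes and 46.6% of the HL60/ADR genes. Another 978 had one in HL60 alone and 1010 in HL60/ADR alone. Of these, 577 (59.0%) and 597 (59.1%) had some other peak in the other line, so for most of them the gene was not without m6A signal there. The absence of a peak from a list does not show the absence of methylation.

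Where 1 first-exon peak of each line overlapped only the other, the values could be set side by side. There were 659 such pairs in 607 genes. The median log2 ratio of fold enrichment, HL60/ADR over HL60, was 0.27 (0.18 to 0.34), against 0.35 over all 16545 pairs of peaks. More than 2-fold higher in HL60/ADR were 152 pairs (23.1%; 20.01 to 26.4), against 19.0% of all pairs, and more than 2-fold lower were 60 (9.10%; 7.14 to 11.5), against 4.81% of all pairs. Off the grid of whole steps, the counts were 53 (13.8%) and 23 (6.01%) of 383 pairs, against 14.2% and 1.98% of all pairs. In genes at 1 FPKM or more in both lines, they were 59 (16.3%) and 25 (6.89%) of 363, against 16.4% and 3.33% of all pairs in such genes, with a median log2 ratio of 0.16. The share of pairs that were higher thus lay near that of all pairs once low or stepped values were left out, while the share that were lower stayed above it in these pooled lists.

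**Figure D4:**
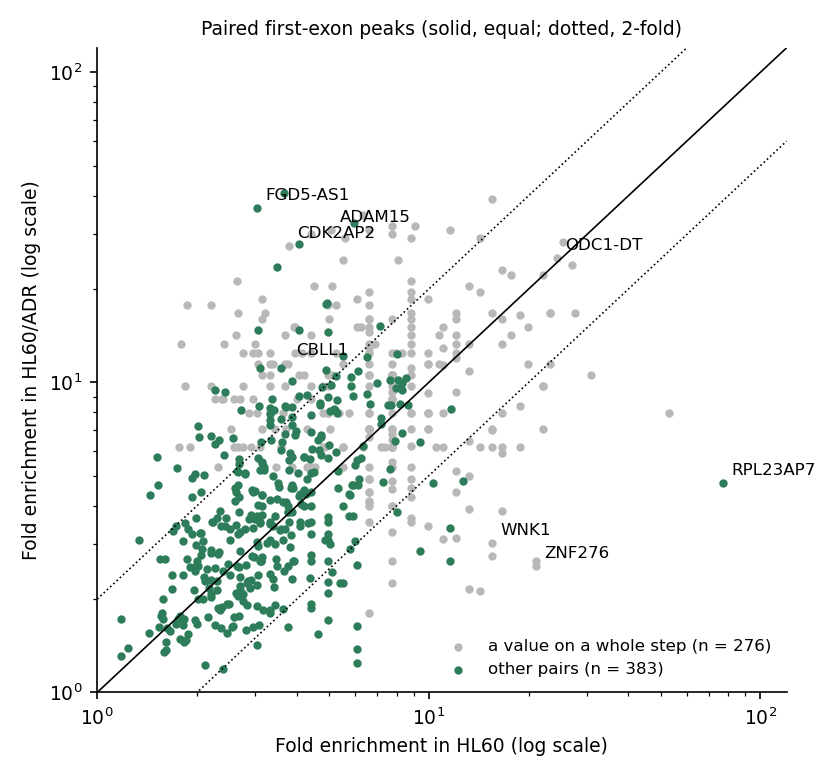
Fold enrichment of 659 paired first-exon peaks in HL60 (x axis) and HL60/ADR (y axis), both on log axes, with lines at equality and at 2-fold differences, and grey points where a value lies on a whole step. Above the upper 2-fold line lie 152 pairs and below the lower one 60.

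FGD5-AS1, a long non-coding RNA, had the largest ratio among expressed pairs, going from 3.04 to 36.4 over the same region (chr3:14948156-14948424), at the covered start of its 6-exon transcript. Its other first-exon peak, further along the gene, had 5.28 and 7.99, so the 11.97-fold difference was local to the start. FGD5-AS1 RNA was at 18.4 and 18.1 FPKM in HL60 and 12.1 and 12.3 FPKM in HL60/ADR. CDK2AP2, a CDK2-associated protein, went from 3.78 to 27.5 in its first exon, while its 5' UTR peak had 1.53 and 1.75. ADAM15, a membrane metalloproteinase, went from 5.08 to 31.0, and LENG8-AS1 from 5.95 to 32.6. NEDD4, a ubiquitin ligase, went from 3.15 to 16.0, TMEM147 from 2.76 to 12.4 and IFT122, a ciliary transport protein, from 3.05 to 12.4. The HL60/ADR values of CDK2AP2, ADAM15, NEDD4, TMEM147 and IFT122 were on whole steps. That of FGD5-AS1 lay above the 40 steps searched, so it was not classed. No error can be attached to these ratios.

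In the other direction, the largest ratio was that of RPL23AP7 given above. ZNF276, a zinc finger protein, went from 21 to 2.55, and WNK1, a kinase that controls ion transport, from 15.5 to 3.03. PSMB8, an immunoproteasome subunit, went from 12.1 to 3.15 and GPI, a glycolytic enzyme, from 11 to 3.12. ATP13A3, a polyamine transporter, went from 6.07 to 1.24, and FMNL1, a formin of blood cells, from 6.62 to 1.81. The HL60 values of ZNF276, WNK1, PSMB8, GPI and FMNL1 were on whole steps, and that of RPL23AP7 lay above the 40 steps searched.

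The ratio between lines moved with the expression of the gene. Where the gene's log2 expression was more than 2-fold lower in HL60/ADR the median log2 ratio was 0.55 (0.23 to 0.96, 55 pairs). Within 2-fold it was 0.21 (0.10 to 0.32, 382 pairs). Where expression was more than 2-fold higher it was -0.12 (-0.46 to 0.46, 47 pairs). These intervals overlapped, so the order of the classes is not settled for first-exon pairs. Over all pairs the same classes gave 0.54 (0.50 to 0.57), 0.34 (0.32 to 0.36) and 0.17 (0.12 to 0.26). EXOSC2, a subunit of the RNA exosome, was one case: its peak went from 4.95 to 14.5 while its RNA fell. Both measures used the input libraries, so they are not independent.

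Gene expression in the 4 input libraries was the only measure with replicates. FPKM summed to 185825 to 209303 per library over 27996 genes, read totals per library were not used here, and log2 FPKM correlated at 0.991 between replicates of a line and at 0.836 to 0.838 between lines across genes, which are not independent. Markers of promyelocytes such as MPO, a granule enzyme, were present in every input (MPO 135 to 252 FPKM), while ELANE was low (0.244 to 8.05 FPKM). The 12 markers summed to 452 and 458 in the HL60 libraries and to 1591 and 1630 in those of HL60/ADR. Most of that rise was CTSG, at 5.57 and 7.87 FPKM in HL60 and 795 and 819 FPKM in HL60/ADR. MS4A3 alone was lower, at 22.9 and 22.5 FPKM against 12.7 and 12.4 FPKM. In these bulk samples, fewer cells of a type and less RNA per cell cannot be told apart. Over 13053 genes tested with limma on log2(FPKM + 1), the median log2 fold change was -0.18. Fold changes of single genes are given without centring on this median unless stated.

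Of the 1678 tested genes with a first-exon peak in either line, 159 were higher in HL60/ADR (9.48%) and 168 were lower (10.0%), at an adjusted p under 0.05 and more than 2-fold. The shares over all tested genes were 8.93% and 13.8%. With each library centred on its median the counts were 237 higher (14.1%) and 102 lower (6.08%), against 12.7% and 8.96% of all tested genes. Genes with members in both lines gave 62 higher and 55 lower of 607, genes with members in HL60 alone 44 and 69 of 530, and genes with members in HL60/ADR alone 53 and 44 of 541. Centred, these were 94 and 34, 62 and 37, and 81 and 31, so the leading direction turned with the scaling for genes with members in either line and in HL60 alone, and higher led under both scalings in the other 2 groups.

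**Figure D5:**
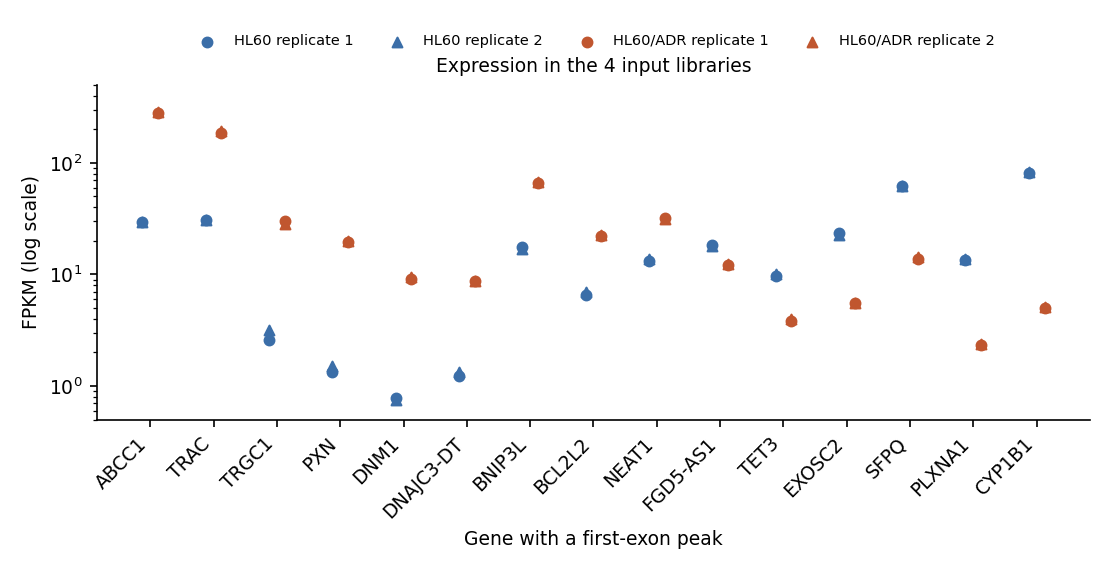
Input expression (FPKM, log axis) of 15 genes with a first-exon peak in at least 1 line (x axis), with 1 point for each of the 2 HL60 and 2 HL60/ADR libraries. The libraries of a line lie close together, and the lines lie far apart for genes such as PXN (1.34 and 1.52 FPKM against 19.7 and 19.97 FPKM) and CYP1B1 (81.7 and 83.2 against 5.05 and 5.07 FPKM).

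PXN, the focal adhesion adaptor paxillin, rose most among called genes with members in both lines. It was at 1.34 and 1.52 FPKM in the HL60 inputs and 19.7 and 19.97 FPKM in the HL60/ADR inputs (log2 fold change 3.10, SE 0.05, adjusted p = 1.05e-05 by limma). Its HL60 member had a fold enrichment of 2.76 and its HL60/ADR members, in an exon of AC004263, had 9.75 and 4.19. DNM1, the membrane-scission GTPase dynamin, rose from 0.781 and 0.747 FPKM to 9.13 and 9.56 FPKM (log2 fold change 2.55, adjusted p = 1.32e-05 by limma), with peaks of 3.75 and 1.63. CAPN2, a calpain protease, KIF3C, a kinesin, and MOK, a kinase, rose by log2 fold changes of 1.93, 1.90 and 1.87, all with an adjusted p of 5.3e-05 or lower by limma.

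TRGC1 and TRAC, constant genes of T cell receptor chains, were among the largest called rises of genes with members in both lines. TRGC1 was at 2.58 and 3.16 FPKM in HL60 and 30.3 and 28.4 FPKM in HL60/ADR (log2 fold change 2.97, adjusted p = 2.66e-05 by limma), and TRAC at 30.7 and 30.6 FPKM against 185 and 192 FPKM (log2 fold change 2.58, adjusted p = 7.05e-06 by limma). The TRAC peak covered the same region in both lines (chr14:22547506-22549661), with 2.76 and 2.08, and the TRGC1 peaks had 1.97 and 1.71. Of the T and NK cell markers, 3 of 10 passed the filter on low values and 1 was called higher (2 with centred libraries). The shares over all tested genes were 8.93% and, centred, 12.7%. CD3D was at 0.469 and 0.617 FPKM in HL60 and 54.7 and 55.6 FPKM in HL60/ADR, while CD3G, LCK, ZAP70 and CD2 were at or under 0.254 FPKM in every library. The list summed to 93.2 and 98.4 in HL60 and to 219 and 218 in HL60/ADR, and its part in the result was not tested. Most of these sums came from CD4 (62.0 and 64.6 FPKM against 121 and 122 FPKM) and NKG7 (30.4 and 32.7 FPKM against 42.4 and 39.4 FPKM).

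Among non-coding RNAs, OLMALINC rose from 0.333 and 0.348 FPKM to 5.24 and 5.58 FPKM (log2 fold change 2.26, adjusted p = 2.16e-05 by limma), with peaks of 3.13 and 5.50. DNAJC3-DT, whose start is printed above, rose from 1.24 and 1.34 FPKM to 8.78 and 8.68 FPKM (log2 fold change 2.09, adjusted p = 1.73e-05 by limma). Its peak value went from 8.02 to 12.3, so here RNA and ratio were both higher in HL60/ADR. MALAT1 was at 24.8 and 25.7 FPKM in HL60 and 34.6 and 35.5 FPKM in HL60/ADR, a log2 difference of 0.46 that was under the 2-fold limit.

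Among called genes with members in both lines, CYP1B1 fell most, from 81.7 and 83.2 FPKM to 5.05 and 5.07 FPKM (log2 fold change -3.78, adjusted p = 6.29e-06 by limma). Its shared first-exon peak, in the CYP1B1-AS1 exon, had 1.86 in HL60 and 4.88 in HL60/ADR. PLXNA1, a semaphorin co-receptor, fell from 13.4 and 13.9 FPKM to 2.32 and 2.39 FPKM (log2 fold change -2.12, adjusted p = 1.32e-05 by limma), with 2.90 and 6.21 for its peak at the start. SFPQ, a splicing factor of paraspeckles, fell from 62.5 and 62.7 FPKM to 13.9 and 14.4 FPKM (log2 fold change -2.07, adjusted p = 8.73e-06 by limma), with weak peaks between 1.18 and 2.37 in both lines. EXOSC2 fell from 23.6 and 22.6 FPKM to 5.58 and 5.56 FPKM (log2 fold change -1.87, adjusted p = 1.28e-05 by limma), and DNAAF5, a dynein assembly factor, by 2.04 on the log2 scale (adjusted p = 1.82e-05 by limma).

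Among 22 writer, eraser and reader genes of m6A that had a peak in each line, 3 had a first-exon peak in HL60 (13.6%) and 4 in HL60/ADR (18.2%). The shares over all genes with a peak were 11.9% (1861 of 15640) and 12.4% (1893 of 15285), so these counts lay near the background. Of 8 writer genes, 1 had a member in HL60 and 2 in HL60/ADR. CBLL1, the HAKAI subunit of the writer complex, had 3.75 in HL60 and 11.5 in HL60/ADR, with its RNA at 12.3 and 12.5 FPKM against 8.70 and 9.20 FPKM. METTL14, a core subunit, had 1.59 in HL60/ADR only. The eraser ALKBH5 had 1.68 and 2.23 at the same place, and the reader YTHDF2, which directs m6A-marked RNA to decay, had 2.06 and 4.43. None of these 4 genes passed both limits of the expression test, with log2 fold changes of -0.43, -0.44, 0.42 and -0.90. Of all writers tested, 1 of 8 was higher and 1 lower, against 8.93% and 13.8% of all tested genes, and the lower call was lost with centred libraries.

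Among regulators of transcription and chromatin, 19 zinc finger (ZNF) genes of 440 had a member in HL60 and 22 in HL60/ADR, 9 in both. These were 5.21% of the 365 ZNF genes with a peak in HL60 and 6.43% of the 342 in HL60/ADR, against the 11.9% and 12.4% of all genes with a peak. FOXP1, a forkhead factor of lymphoid cells, had 27.6 in HL60 only, at an RNA level of 0.420 and 0.435 FPKM. FOXN3 had members in both lines that did not cover the same place, 4.83 in an exon of FOXN3-AS1 and 11.5 in an exon of AL357093. SP3, a GC-box factor, had 3.96 and 6.77. SETD2, the histone H3 lysine 36 methyltransferase, had values up to 2.64 and 5.51, and TET3, a 5-methylcytosine dioxygenase, had 3.34 and 6.50 while its RNA fell from 9.68 and 10.0 FPKM to 3.86 and 4.02 FPKM (log2 fold change -1.14, adjusted p = 4.33e-05 by limma). HOXC10 had 2.81 in HL60 only, although its RNA rose from 1.87 and 1.98 FPKM to 16.4 and 17.5 FPKM (log2 fold change 2.61, adjusted p = 1.32e-05 by limma). HOXA5, HOXA6, HOXC5 and HOXC9, which like HOXC10 encode homeodomain factors, had members in HL60/ADR only, at 2.86, 16.8, 7.09 and 11.5. Their mean RNA levels in HL60 were 0.0312 to 0.139 FPKM, and the part of this in the missing HL60 peaks was not tested. First-exon peaks were found for 1 of 20 HOX genes with a peak in HL60 (5.0%) and 4 of 23 in HL60/ADR (17.4%). Of 10 HOX genes tested 7 were higher (9 with centred libraries), against 8.93% of all tested genes (12.7% centred).

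Among 24 chromatin genes tied to leukaemia, SETD2 and TET3 had members in both lines, and DNMT1, the maintenance DNA methyltransferase, and SUZ12, a Polycomb subunit, had weak ones in HL60/ADR only (1.67 and 1.66). That was 2 of 23 such genes with a peak in HL60 (8.70%) and 4 of 22 in HL60/ADR (18.2%). The shares over all genes with a peak were 11.9% and 12.4%. DNMT1 fell from a mean of 35.6 to 15.6 FPKM (log2 fold change -1.14, adjusted p = 2.01e-05 by limma), and SUZ12 from 23.1 to 7.69 FPKM (log2 fold change -1.47, adjusted p = 2.05e-05 by limma). Of these 4 genes with members, 3 were called lower, as were 4 of 23 genes tested in the list, near the 13.8% of all tested genes. With centred libraries 1 of the 23 was lower, and TET3 and DNMT1, both at a log2 fold change of -0.92, were no longer past the 2-fold limit.

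Among genes tied to drug response, first-exon peaks were found for 0 of 7 ABC efflux pumps with a peak in HL60 and 2 of 8 in HL60/ADR. These 2 were ABCC1 above and ABCC6 at 3.60, whose mean RNA level was 0 FPKM in HL60 and 0.611 FPKM in HL60/ADR. The BCL2 family, which sets the threshold for apoptosis, had 2 and 3. BCL2L2 had 2.27 and 1.65 in an exon of PPP1R3E, and BID, a pro-apoptotic member, had 1.47 and 5.32 in peaks that did not overlap. BNIP3L, a mitophagy receptor, had 3.55 in HL60/ADR only, in an exon of the pseudogene DNAJB6P2. BCL2L2, a survival factor, was at 6.51 and 6.95 FPKM in HL60 and 22.3 and 22.7 FPKM in HL60/ADR (log2 fold change 1.60, adjusted p = 2.08e-05 by limma). BNIP3L was at 17.6 and 17.1 FPKM against 66.0 and 66.8 FPKM (log2 fold change 1.88, adjusted p = 9.28e-06 by limma), and 4 of 16 family genes tested were higher and 2 lower (5 and 2 centred), against 8.93% and 13.8% of all tested genes (12.7% and 8.96% centred). Topoisomerase genes, the target class of doxorubicin, had 0 in both lines, where the background of 11.9% and 12.4% would give less than 1 gene, and 3 of 6 tested were lower (2 centred), against 13.8% of all tested genes (8.96% centred). SOX genes and the 5 lists of cell type markers also had 0. Only 9 and 8 SOX genes and 2 to 10 genes of each marker list had a peak, too few to set against that background.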

How the data were processed

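Poly(A) RNA of HL60 and HL60/ADR cells was immunoprecipitated with an m6A antibody, with 2 IP and 2 input libraries per line. Libraries were assigned to HL60/ADR by title and column name, since other labels read HL60 for all samples. The authors used fastp for read cleaning and HISAT2 for alignment to GRCh38 (Ensembl annotation), called peaks with exomePeak on both replicates pooled and annotated them with ChIPseeker. Each deposited peak carried a fold enrichment ratio of IP over input and a p-value from the authors' caller, and the deposited lists also held log10 scores of both the p-value and its false discovery rate. FPKM per gene came from the authors' StringTie run on the input libraries. No column of another sample was present (0 such columns). Read totals per library were not used here, and no counts behind the values were analysed.

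Peaks of the lines were overlapped on exonic blocks (at least 1 base, strand ignored). Input FPKM was tested with limma 3.58.1 in R 4.3.3 on log2(FPKM + 1), with a mean of 0.5 FPKM or more over 4 libraries (13053 of 27996 genes), Benjamini-Hochberg adjustment over all tested genes, and genes called where the adjusted p was under 0.05 and log2 expression moved by over 1. Fold changes are on this scale, which understates those of low genes. Tested on simulated data for this comparison, it recovered 177 of 200 changed genes, with 3 false calls among 13053. Tables used Python 3.11.15 and pandas 2.3.3. Alternatives varied the pseudocount, filters, centring, replicates, overlap and peak thresholds. Sequences at starts are from RefSeq (GRCh38.p14).

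Genes were named by rule: the 10 strongest peaks per line among genes at 1 FPKM or more, the 10 largest pair differences in each direction among genes at 1 FPKM or more in both lines, the 5 genes with most peaks per line, the 10 largest called expression changes in each direction among genes with peaks in both lines, and up to 4 members of each of 23 gene lists with peaks in both lines. Genes with a printed start, and list members with a peak in 1 line or below 1 FPKM, were added after their values were seen. The members and lists were chosen with earlier results of these data known. The result of 1 gene list is not reported here.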

Additional observations from a re-analysis of the deposited data

How the results depend on the processing

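Expression calls among genes with first-exon peaks (159 higher, 168 lower) depended on the pseudocount (264 and 276 at 0.1 FPKM) and on centring each library on its median (237 and 102). Leaving out 1 input library at a time gave 154 to 159 higher and 170 to 176 lower, assuming that the lone library of a line varies like the other line. The replicate numbers did not pair the libraries (correlation of same-numbered deviations 0.043, across genes), and a fit with a replicate block gave 158 and 168. The 20 genes named for their expression change kept their calls under all 10 alternatives run.

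Requiring a fold enrichment of 2 gave first-exon shares of 6.11% (HL60) and 6.13% (HL60/ADR), with an HL60 median of 5.52. The stricter threshold (false discovery rate of at most 1e-05 and fold enrichment of 4 or more) gave shares of 3.82% and 4.32%, medians of 6.62 and 8.87, overlaps of 68.8% and 42.7%, 25 pairs higher and 8 lower, and a median log2 ratio of 0.38. Genes at 1 FPKM or more in both lines gave shares of 4.11% and 4.37%, medians of 3.31 and 3.88, an HL60 overlap of 65.2%, 61 pairs higher and 23 lower, and a median log2 ratio of 0.17. Leaving out peaks on whole steps gave shares of 4.70% and 4.88%, medians of 3.31 and 3.45, overlaps of 55.5% and 56.1%, and 61 pairs higher and 25 lower. In these alternatives peaks were left out before pairing, whereas in the results above finished pairs were left out, so the pair counts differ. An overlap of 50% of both peaks lowered the shared members to 33.7% and 33.3%. The cause of these differences was not tested. The planned search for DRACH words in 2 window sizes around the middle of peaks was not run. The search at RefSeq starts was chosen after seeing the data.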
